A study of Mus musculus with 39 samples.

Results

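The step from day 1 to day 2 of differentiation in wild-type C2C12 cells was described from 8 of the 39 libraries of the series: the 4 wild-type libraries labelled day 2 (replicates 1, 3, 4 and 5) and the 4 labelled day 1 (the same replicate numbers). C2C12 is an established mouse line of muscle precursor cells (myoblasts). The wild-type cells (WT) carried no edit. They were moved out of growth medium into medium with 2% horse serum, which was renewed each day, and RNA was taken 1 or 2 days later. For comparison, the same step was read in cells edited with CRISPR/Cas9 at the first exon of Flnc (KO; 3 libraries at day 2 and 4 at day 1), and the steps on either side in the WT cells (4 libraries each at days 0 and 4), with day 6 (4 libraries) for the later course. The labels do not say whether replicates were separate cultures, so p-values measure the spread between libraries, which may be technical. In the edgeR tests this spread was estimated from all 39 libraries of the series. The labels also do not say whether the edited line is 1 clone.

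When serum is withdrawn, myoblasts leave the cell cycle, switch on the transcription factor myogenin, and fuse into multinucleated myotubes that assemble sarcomeres, the contractile units of muscle. Fusion needs the muscle membrane proteins myomaker and myomixer. A sarcomere is built from thin filaments (actin, tropomyosin and the calcium-sensing troponins) and thick filaments (myosin), anchored at the Z-disc and M-band. Excitation-contraction coupling joins the membrane signal to calcium release from the sarcoplasmic reticulum.

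At WT day 2, 11 of 22 tested thin filament genes, 8 of 25 thick filament genes and 10 of 27 genes of excitation-contraction coupling were called higher than at WT day 1. Fewer genes of cell fusion (5 of 21, with 1 lower) and of the Z-disc (3 of 31) were called higher. Of the tested genes of mitosis and DNA replication, 18 of 46 and 15 of 43 were called lower. Of 13780 genes tested, 173 (1.26%) were higher and 299 (2.17%) were lower at an adjusted p under 0.05 (edgeR quasi-likelihood test, Benjamini-Hochberg adjustment over all genes tested); DESeq2 gave 336 and 456. Together these were 3.43% of the genes tested. The median log2 difference over all genes was 0.00. Among the genes past the threshold, 131 of the higher and 225 of the lower genes differed by more than 2-fold. The values of the 4 WT day 2 libraries lay wholly above those of WT day 1 for 419 genes (3.04%) and wholly below for 816 (5.92%), 8.96% in all, including 104 of the 173 and 237 of the 299. The main fit did not use replicate number, although same-numbered libraries deviated together, as given with the processing. With replicate number as a block the counts were 328 (2.38%) and 594 (4.31%).

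A pair of libraries stood apart. WT day 2 replicate 4 had high levels of endoplasmic reticulum stress genes, given below, and the lowest mean correlation with its own group (Pearson's r of log2 CPM 0.957; 0.964 to 0.970 for the other WT day 2 libraries). WT day 1 replicate 5 lay as near to day 2 (mean r 0.971) as to the other day 1 libraries (0.970), and on the first principal component of the 8 libraries (37.7% of the variance) it scored 2.06, against 14.3 to 46.2 in the WT day 2 libraries and -63.9 to -35.2 in the other WT day 1 libraries. Without WT day 2 replicate 4, 114 genes (0.829%) were higher and 91 (0.662%) lower. Without both, 275 (2.00%) were higher and 226 (1.65%) lower. WT day 1 replicate 5 was picked for its nearness to day 2, so leaving it out tends to widen the difference by construction. Counts without it, here and below, are therefore no independent check. Other libraries differed within their groups too. WT day 2 replicate 3 had a mean r of 0.968 with day 1 and 0.970 with its own group, and scored 14.3 on that component. WT day 1 replicate 4 scored -63.9 and had the lowest mean r with the other day (0.944). The counts also depended on these and the remaining libraries. Higher and lower counts were 52 and 112 without WT day 1 replicate 1, 53 and 158 without WT day 1 replicate 3, 15 and 28 without WT day 1 replicate 4, and 310 and 432 without WT day 1 replicate 5. They were 93 and 107 without WT day 2 replicate 1, 195 and 279 without WT day 2 replicate 3, and 109 and 158 without WT day 2 replicate 5. Together, 15 higher and 28 lower genes passed in each of these 8 fits.

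Library totals ranged from 18038912 to 26552348 counts at WT day 2 and from 16738208 to 26096670 counts at WT day 1. All 8 defining myoblast markers were detected, and 1 of them, Ncam1, was called (higher); Myod1 averaged 145 CPM (read counts scaled to the size of each library) at WT day 2 and 127 CPM at WT day 1. In the edgeR fit no tested marker of adipocytes (3 tested), bone and cartilage (4), neurons and glia (4), leukocytes (3) or endothelium (3) was called, with 2, 2, 1, 0 and 1 at an unadjusted p under 0.05; Adipoq, Ibsp, Snap25, Cd3e and Cdh5 had no read in these libraries. For endothelium, 1 marker was called higher by DESeq2, 1 with the replicate block and 1 without WT day 1 replicate 5, and the summed CPM of its 8 markers was 4.65 to 14.9 at WT day 2 and 0.605 to 3.19 at WT day 1. Most of the mean sum was Vwf (von Willebrand factor; picked after its values were seen), at 5.69, 4.27, 14.3 and 3.90 CPM in the WT day 2 libraries, against 1.95, 0.302, 0.534 and 2.46 CPM in the WT day 1 libraries (adjusted p = 0.0697; with the block 0.0385). Of 5 tested fibroblast markers 1 was lower, as given with the collagens. The share of counts from the mitochondrial genome was 2.69 ± 0.440% at WT day 2 and 2.41 ± 0.429% at WT day 1 (SD, n = 4 each; exact two-sided permutation test, p = 0.457; the smallest p possible is 0.0286).

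**Figure D1:**
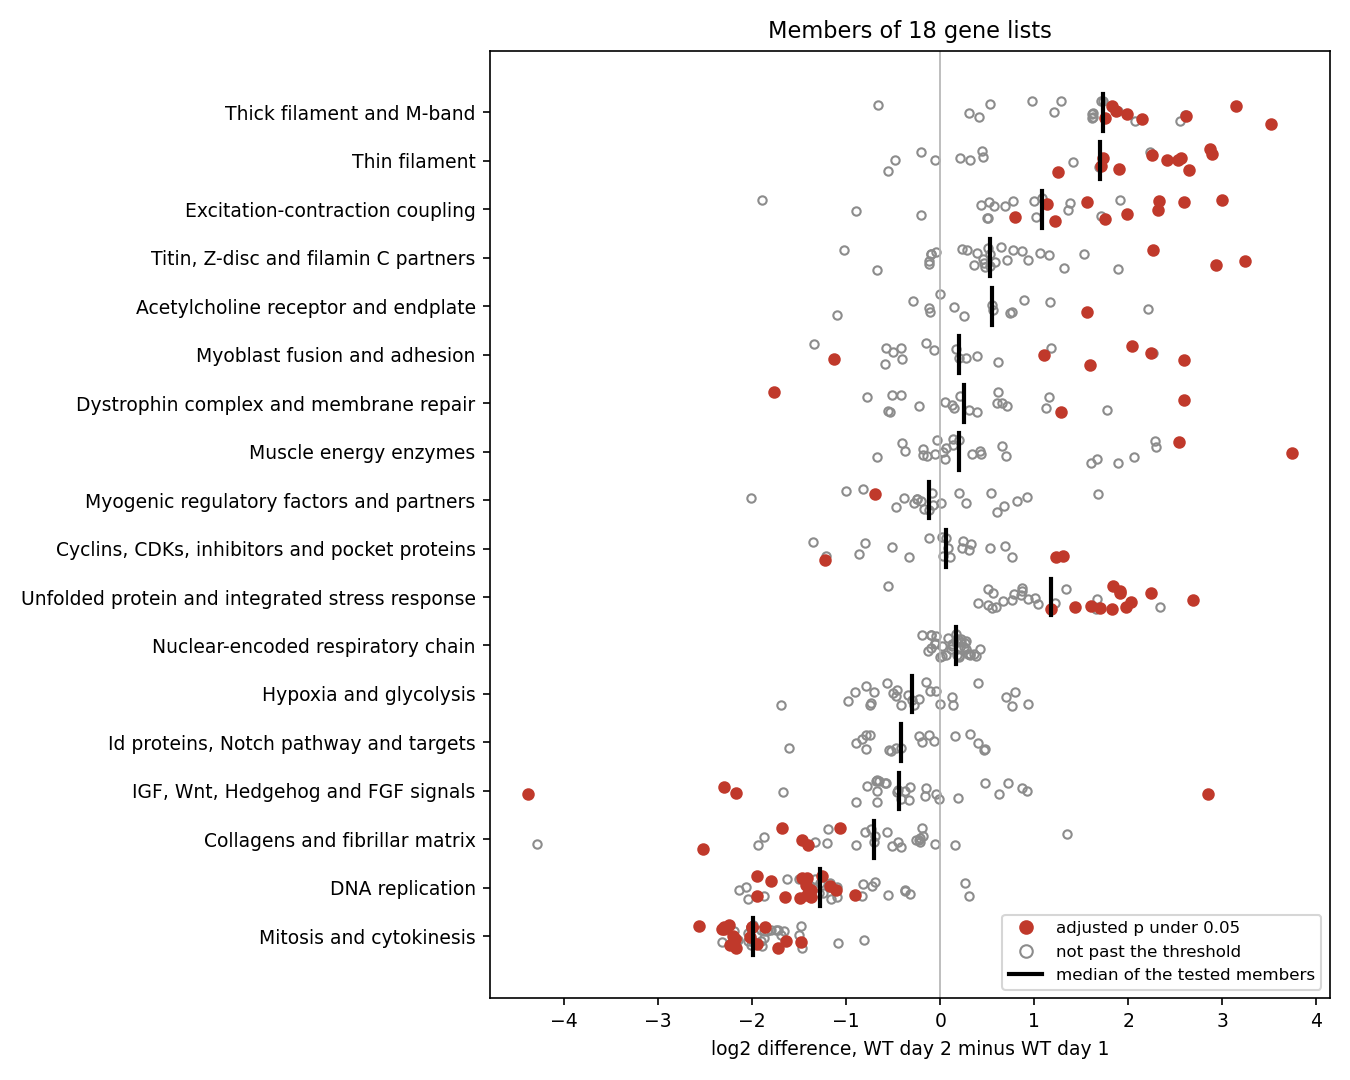
Each point is 1 tested gene, placed by its log2 difference (WT day 2 minus WT day 1, horizontal axis) in 1 of 18 gene lists (vertical axis); red points are past an adjusted p of 0.05 and black bars are list medians. Thick and thin filament genes lie mostly right of 0 (medians 1.74 and 1.70), and all 46 mitosis genes lie left of it (median -2.00).

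Myomaker and myomixer, the muscle proteins of cell fusion, were both higher at WT day 2. Per-library values below are in the order of replicates 1, 3, 4 and 5, and each log2 difference is given with a standard error from the log2 CPM of the libraries. Mymk (myomaker, chr2:27061636-27072179) was at 872, 574, 584 and 710.0 CPM in the WT day 2 libraries, against 136, 73.4, 60.7 and 311 CPM in the WT day 1 libraries. The groups did not overlap, and WT day 1 replicate 5 was the highest of its group (log2 difference 2.24 ± 0.55, adjusted p = 0.0106). Mymx (myomixer, chr17:45600971-45602102) was at 45.6, 39.0, 30.3 and 79.5 CPM in the WT day 2 libraries, against 7.19, 5.59, 6.89 and 27.4 CPM in the WT day 1 libraries. Again the groups did not overlap and WT day 1 replicate 5 was closest to day 2 (log2 difference 2.04 ± 0.60, adjusted p = 0.0214). Mymk lost its call without WT day 1 replicate 4 (adjusted p = 0.0832), and Mymx lost its call without WT day 1 replicates 1, 3 or 4 or WT day 2 replicate 5 (adjusted p from 0.0749 to 0.121). Per kilobase of exon, Mymk averaged 453 RPKM and Mymx 47.3 RPKM at WT day 2. In RNA from whole cultures, a change in the share of differentiating cells and a change in RNA per cell cannot be told apart.

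Of 21 tested genes of fusion and adhesion, 5 were higher and 1 lower (median log2 difference 0.20; all genes 0.00). The other higher members were Cav3, Ncam1 and Tmem182. Ncam1, an adhesion molecule of the immunoglobulin family, averaged 284 ± 91.0 CPM at WT day 2 and 132 ± 52.7 CPM at WT day 1 (SD, n = 4 each), with overlapping groups (adjusted p = 0.0267). The lower member was Dock5, a guanine nucleotide exchange factor for Rac. Dock5 was at 60.3, 49.5, 65.4 and 54.2 CPM in the WT day 2 libraries, against 123, 83.7, 178 and 116 CPM in the WT day 1 libraries, without overlap (log2 difference -1.13 ± 0.24, adjusted p = 0.0211). Ncam1 lost its call without WT day 1 replicates 1, 3 or 4 or WT day 2 replicates 1 or 4 (adjusted p from 0.0549 to 0.124), and Dock5 lost its call without WT day 1 replicate 4 or WT day 2 replicates 1 or 5 (adjusted p from 0.0504 to 0.151). The list's higher count was 1 without WT day 1 replicate 1 or 3, 0 without WT day 1 replicate 4, 3 without WT day 2 replicate 1, and 2 without WT day 2 replicate 5.

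The myogenic transcription factors themselves gave 1 call in 23 tested genes (4.35%), near the 3.43% called in either direction over all genes tested. Myog (myogenin) was at 548, 456, 589 and 706 CPM in the WT day 2 libraries, against 127, 101, 115 and 373 CPM in the WT day 1 libraries. Every WT day 2 library was above every WT day 1 library, but the difference missed the threshold (log2 difference 1.68 ± 0.45, adjusted p = 0.0868); with replicate number as a block the adjusted p was 0.0225. Myod1, the factor that commits cells to the muscle lineage, was at 179.9, 186, 79.6 and 135 CPM in the WT day 2 libraries, against 126, 111, 123 and 147 CPM in the WT day 1 libraries. Its groups overlapped (log2 difference 0.20 ± 0.30, adjusted p = 0.753). Myf5, its close relative, averaged 110.3 ± 64.8 CPM at WT day 2 and 58.2 ± 17.6 CPM at WT day 1 (SD, n = 4 each) (adjusted p = 0.197), and Mef2c, a partner of the myogenic factors, averaged 44.1 ± 29.6 CPM at WT day 2 and 25.1 ± 16.0 CPM at WT day 1 (SD, n = 4 each) (adjusted p = 0.403). The called member was Tcf3, which encodes the E proteins that pair with myogenic factors on DNA: it averaged 71.5 ± 9.80 CPM at WT day 2 and 115 ± 22.5 CPM at WT day 1 (SD, n = 4 each) and was lower at day 2 (log2 difference -0.69 ± 0.18, adjusted p = 0.0405). Tcf3 lost its call without WT day 1 replicates 1, 4 or 5 or WT day 2 replicates 1, 4 or 5 (adjusted p from 0.0688 to 0.199).

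Id proteins and Notch signalling restrain differentiation in myoblasts. The list of their genes also holds Numb and Hes6, which act the other way. None of its 19 tested genes was called by edgeR (median log2 difference -0.41, with 3 at an unadjusted p under 0.05). DESeq2 and the replicate block each called 1 lower. Id3, which sequesters E proteins, was at 10.5, 17.4, 12.3 and 4.01 CPM in the WT day 2 libraries, against 43.1, 45.1, 33.4 and 13.4 CPM in the WT day 1 libraries. The groups overlapped through WT day 1 replicate 5 (log2 difference -1.61 ± 0.60, adjusted p = 0.0582; with the replicate block 0.0145).

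Myogenic factors bind E-boxes, written CANNTG. The 250 bases before the RefSeq start (GRCm38.p6) are shown for Myog (chr1:134289754-134290003, plus strand) and for Tnnc1, a troponin gene described next (chr14:31208062-31208311, plus strand), with each CANNTG on either strand in capitals.
Myog: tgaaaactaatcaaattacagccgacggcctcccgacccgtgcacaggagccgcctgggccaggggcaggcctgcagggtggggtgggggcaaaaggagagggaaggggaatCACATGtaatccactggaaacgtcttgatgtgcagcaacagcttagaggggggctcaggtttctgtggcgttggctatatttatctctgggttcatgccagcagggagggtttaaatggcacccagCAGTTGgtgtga
Tnnc1: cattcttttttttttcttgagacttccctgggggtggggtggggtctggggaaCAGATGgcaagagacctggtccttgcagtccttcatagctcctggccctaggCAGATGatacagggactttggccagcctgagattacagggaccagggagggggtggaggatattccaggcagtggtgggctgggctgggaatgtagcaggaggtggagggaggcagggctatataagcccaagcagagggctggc
Each window held 2 such sites. RefSeq promoter entries matched 129 of the 173 higher genes, 234 of the 299 lower genes and 10509 of all 13780 genes tested. At least 1 CANNTG stood in this window in 91 of the 129 higher genes (70.5%), 126 of the 234 lower genes (53.8%) and 61.9% of all matched genes. The form CAGCTG, which is contained in CANNTG, stood in 34 of the 129 (26.4%), 33 of the 234 (14.1%) and 14.9% of all. These counts describe letters in the window and do not show binding.

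Thin filament genes were higher at WT day 2 in 11 of 22 tested members, and none was lower (median log2 difference 1.70). All of the called members are actins, tropomyosin, troponin subunits or the actin nucleator Lmod3. Tnnc1, the slow and cardiac calcium-binding troponin C (chr14:31208312-31211729), was at 899, 784, 741 and 968 CPM in the WT day 2 libraries, against 69.9, 86.8, 28.1 and 275 CPM in the WT day 1 libraries. All WT day 2 values were above all WT day 1 values (log2 difference 2.88 ± 0.68, adjusted p = 0.00674). Tnnt3, the fast troponin T, was at 339, 271, 297 and 610.0 CPM in the WT day 2 libraries, against 30.4, 28.1, 11.9 and 137 CPM in the WT day 1 libraries. Here too the groups were apart (log2 difference 2.87 ± 0.78, adjusted p = 0.00901). Acta1, the skeletal muscle actin, was at 2078, 1676, 1171 and 2185 CPM in the WT day 2 libraries, against 278, 163, 94.0 and 961 CPM in the WT day 1 libraries. WT day 1 replicate 5 was again the nearest to the WT day 2 libraries (log2 difference 2.25 ± 0.75, adjusted p = 0.0239). Actc1, the cardiac actin of embryonic muscle, had a log2 difference of 2.41 (adjusted p = 0.0321). Tnnc1 lost its call without WT day 1 replicate 4 (adjusted p = 0.0563), Tnnt3 lost its call without WT day 1 replicate 4 (adjusted p = 0.0666), Acta1 lost its call without WT day 1 replicates 1, 3 or 4 or WT day 2 replicates 1 or 5 (adjusted p from 0.0537 to 0.13) and Actc1 lost its call without WT day 1 replicates 1, 3 or 4 or WT day 2 replicates 1 or 5 (adjusted p from 0.0661 to 0.158).

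The smooth muscle actin Acta2 was at 3348, 5220, 2381 and 2152 CPM in the WT day 2 libraries, against 1970, 2396, 2023 and 1446 CPM in the WT day 1 libraries. Its groups overlapped (log2 difference 0.74 ± 0.33, adjusted p = 0.268). Per kilobase of exon, Acta1 averaged 1157 RPKM at WT day 2 and 244 RPKM at WT day 1, and Acta2 averaged 1491 and 892 RPKM. The other troponin subunits past the threshold were Tnnc2, Tnni1, Tnni2, Tnnt1 and Tnnt2, with log2 differences of 1.71 to 2.65. Exons of Tnnc2 overlap those of Ube2c on the opposite strand, so its count is uncertain where strand was not used. The tropomyosin Tpm2 averaged 1289 ± 255 CPM at WT day 2 and 541 ± 130.1 CPM at WT day 1 (SD, n = 4 each) (log2 difference 1.25 ± 0.23, adjusted p = 0.00674), and lost its call without WT day 1 replicate 4 (adjusted p = 0.0635). The number of thin filament genes called was 14 without both libraries that stood apart and 13 with the replicate block. It was 3 without WT day 1 replicate 1 or 3, 0 without WT day 1 replicate 4, and 5 without WT day 2 replicate 5.

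Thick filament and M-band genes were higher in 8 of 25 tested members, and none was lower (median log2 difference 1.74; 24 of 25 above 0). Mylpf, the fast regulatory myosin light chain (chr7:127208890-127214298), was at 2393, 2480, 1316 and 2953 CPM in the WT day 2 libraries, against 282, 260.2, 133 and 818 CPM in the WT day 1 libraries. The lowest WT day 2 library, replicate 4, was above the highest WT day 1 library, replicate 5 (log2 difference 2.61 ± 0.60, adjusted p = 0.0115). Myl4, the light chain of embryonic muscle and the atria, was at 378, 258, 223 and 487 CPM in the WT day 2 libraries, against 14.6, 22.5, 3.92 and 111 CPM in the WT day 1 libraries. The groups did not overlap, and WT day 1 replicate 4 was the lowest library (log2 difference 3.14 ± 1.02, adjusted p = 0.0125). Myl6b, another essential light chain, was at 189, 139, 80.7 and 193 CPM in the WT day 2 libraries, against 44.1, 30.3, 27.1 and 63.4 CPM in the WT day 1 libraries. It differed in the same direction with no overlap (log2 difference 1.87 ± 0.40, adjusted p = 0.00289) and passed the threshold in each of the 8 fits that left out 1 library. Mylpf lost its call without WT day 1 replicate 4 (adjusted p = 0.0861), and Myl4 lost its call without WT day 1 replicates 1 or 4 (adjusted p from 0.0555 to 0.0774).

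The embryonic myosin heavy chain Myh3 was at 1239, 578, 591 and 1646 CPM in the WT day 2 libraries, against 87.7, 39.1, 27.1 and 537 CPM in the WT day 1 libraries. Its groups did not overlap, but the difference missed the threshold (log2 difference 2.55 ± 1.03, adjusted p = 0.0838; with the replicate block 0.0264). The other called members were Myh7, Myl2 and the M-band genes Myom1, Myom2 and Myom3, with log2 differences of 1.75 to 3.52. The number called was 16 with the replicate block, 6 without WT day 2 replicate 4 and 19 without both libraries that stood apart. It was 2 and 3 without WT day 1 replicates 1 and 3, 1 without WT day 1 replicate 4, 19 without WT day 1 replicate 5, and 3 without WT day 2 replicate 1 or 5. The summed CPM of the list was 6909, 5022, 3795 and 7953 CPM in the WT day 2 libraries, against 1040, 676, 506 and 2793 CPM in the WT day 1 libraries.

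**Figure D2:**
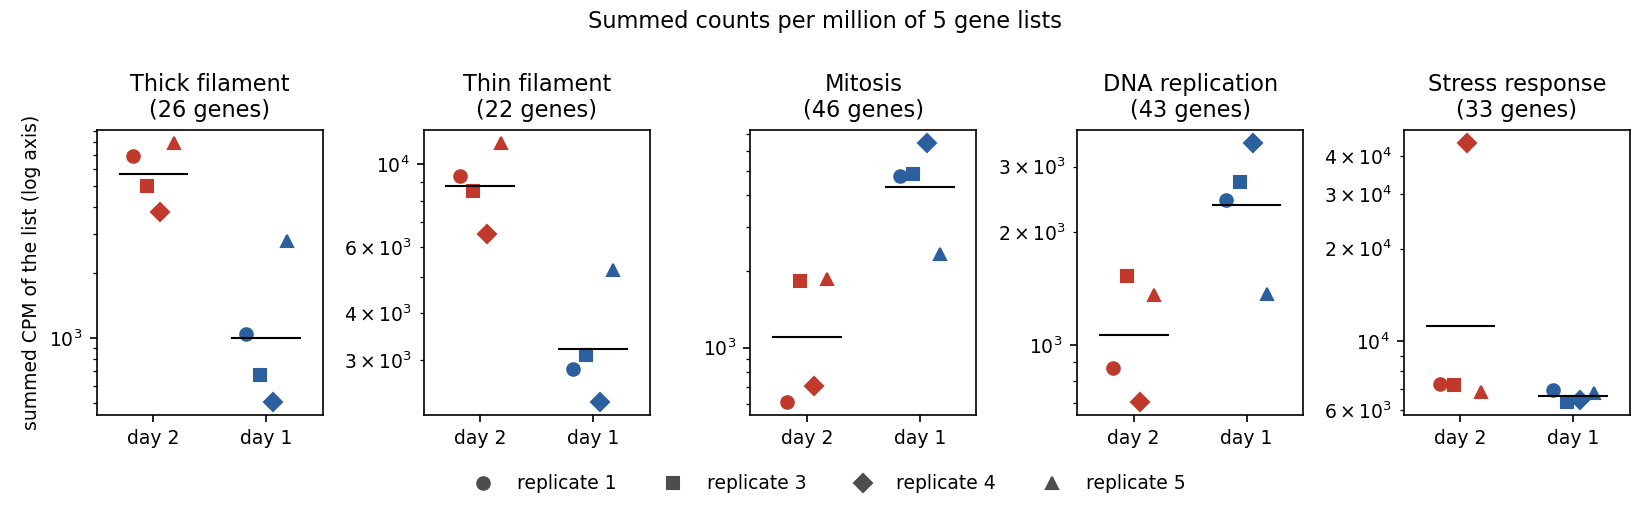
Points are libraries of WT day 2 (left, red) and WT day 1 (right, blue), the vertical log axes are summed CPM of 5 gene lists, marker shapes give replicate numbers and bars are geometric means. WT day 1 replicate 5 is nearest to day 2 in the muscle and cell cycle lists, and in the stress list WT day 2 replicate 4, at 44110 CPM, lies above the others at 6367 to 7288 CPM.

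At the Z-disc, 3 of 31 tested genes were higher and none was lower (median log2 difference 0.52). Ankrd2, a stretch-responsive ankyrin repeat protein, was at 35.8, 41.5, 36.7 and 56.6 CPM in the WT day 2 libraries, against 1.61, 1.91, 0.475 and 13.9 CPM in the WT day 1 libraries. The day 1 values were under 2 CPM except in replicate 5 (log2 difference 3.24 ± 0.97, adjusted p = 0.00765). Myoz2, a calcineurin-binding Z-disc protein, was at 16.0, 16.4, 15.6 and 47.7 CPM in the WT day 2 libraries, against 1.95, 1.31, 1.07 and 8.11 CPM in the WT day 1 libraries. Replicate 5 was the highest library on each day (log2 difference 2.93 ± 0.75, adjusted p = 0.00674). The third member was Csrp3, a muscle LIM protein (log2 difference 2.26 ± 0.68, adjusted p = 0.042), whose groups overlapped. Titin (Ttn), the molecular spring of the sarcomere, was not called (adjusted p = 0.546), and neither was desmin (Des), a muscle intermediate filament (adjusted p = 0.523). Flnc, the Z-disc filamin, was at 1715, 843, 1542 and 789 CPM in the WT day 2 libraries, against 856, 400.4, 753 and 1111 CPM in the WT day 1 libraries. Its groups overlapped (log2 difference 0.65 ± 0.43, adjusted p = 0.34). Ankrd2 lost its call without WT day 1 replicate 4 (adjusted p = 0.0563), Myoz2 lost its call without WT day 1 replicate 4 (adjusted p = 0.0585), and Csrp3 lost its call without WT day 1 replicates 1, 3 or 4 or WT day 2 replicates 1 or 5 (adjusted p from 0.067 to 0.191). The number called was 5 with the block, with 1 gene then lower, and 9 without both libraries that stood apart. It was 8 without WT day 1 replicate 5, and 0 without WT day 1 replicate 4.

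Genes of excitation-contraction coupling were higher in 10 of 27 tested members, and none was lower (median log2 difference 1.08). Casq2, a calcium-binding protein of the sarcoplasmic reticulum lumen (chr3:102086415-102146514), was at 379.9, 182, 192 and 508 CPM in the WT day 2 libraries, against 28.9, 14.9, 6.23 and 108 CPM in the WT day 1 libraries. The groups were apart (log2 difference 2.99 ± 0.94, adjusted p = 0.0135). Cacnb1, a subunit of the voltage sensor channel, was at 96.9, 79.5, 129.8 and 88.3 CPM in the WT day 2 libraries, against 30.7, 19.9, 24.5 and 59.1 CPM in the WT day 1 libraries. It was higher without overlap (log2 difference 1.56 ± 0.37, adjusted p = 0.00407) and passed the threshold in each of the 8 fits that left out 1 library. Jph1, which ties the reticulum to the surface membrane, averaged 58.9 ± 13.8 CPM at WT day 2 and 25.2 ± 7.85 CPM at WT day 1 (SD, n = 4 each) (log2 difference 1.23 ± 0.29, adjusted p = 0.00746). The remaining called members were Cacng1, Jsrp1, Atp2a1, Srl, Scn4a, Cacna1s and Cav3, with log2 differences of 0.80 to 2.59. Ryr1, the calcium release channel, was at 267, 100.2, 208 and 190.3 CPM in the WT day 2 libraries, against 84.9, 21.7, 34.8 and 152 CPM in the WT day 1 libraries. It missed the threshold, with overlap (log2 difference 1.38 ± 0.70, adjusted p = 0.172; with the replicate block 0.0439). Casq2 lost its call without WT day 1 replicates 1, 3 or 4 (adjusted p from 0.0541 to 0.0881), and Jph1 lost its call without WT day 1 replicate 4 (adjusted p = 0.071). The number called was 15 with the replicate block. It was 2 without WT day 1 replicate 1 or 3, 1 without WT day 1 replicate 4, and 3 without WT day 2 replicate 1 or 5.

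The pair of caveolin genes in the dystrophin complex and membrane repair list moved in opposite directions. Cav3, the muscle caveolin, was at 12.2, 6.25, 3.81 and 9.97 CPM in the WT day 2 libraries, against 0.383, 1.01, 0.237 and 3.65 CPM in the WT day 1 libraries. Cav1, the caveolin of undifferentiated and many non-muscle cells, was at 59.9, 63.0, 25.2 and 78.3 CPM in the WT day 2 libraries, against 233, 259, 118 and 160.1 CPM in the WT day 1 libraries. Neither gene had overlapping groups: Cav3 was higher (log2 difference 2.59 ± 0.85, adjusted p = 0.0295) and Cav1 lower (log2 difference -1.77 ± 0.44, adjusted p = 0.00396). Cav1 passed the threshold in each of the 8 fits that left out 1 library; Cav3 lost its call without WT day 1 replicates 1, 3 or 4 or WT day 2 replicates 1 or 5 (adjusted p from 0.0596 to 0.151). The list had 2 higher genes (Cav3 and Sgca, a sarcoglycan) and 1 lower gene in 22 tested, and 7 higher and 2 lower with the replicate block. Its higher count was 6 without WT day 1 replicate 5, 4 without WT day 2 replicate 3, and 0 without WT day 1 replicates 3 or 4 or WT day 2 replicate 1. In the acetylcholine receptor and endplate list, 1 of 15 was higher: Chrng, the fetal gamma subunit, averaged 188 ± 39.0 CPM at WT day 2 and 63.6 ± 40.2 CPM at WT day 1 (SD, n = 4 each) (log2 difference 1.56 ± 0.47, adjusted p = 0.0364). Chrng lost its call without WT day 1 replicates 1, 3 or 4 or WT day 2 replicates 1, 4 or 5 (adjusted p from 0.0639 to 0.184). Chrna1, the alpha subunit, averaged 1521 ± 228 CPM at WT day 2 and 1034 ± 235 CPM at WT day 1 (SD, n = 4 each) and was not called (adjusted p = 0.382). The endplate list had 4 calls with the block and 4 without WT day 1 replicate 5.

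**Figure D3:**
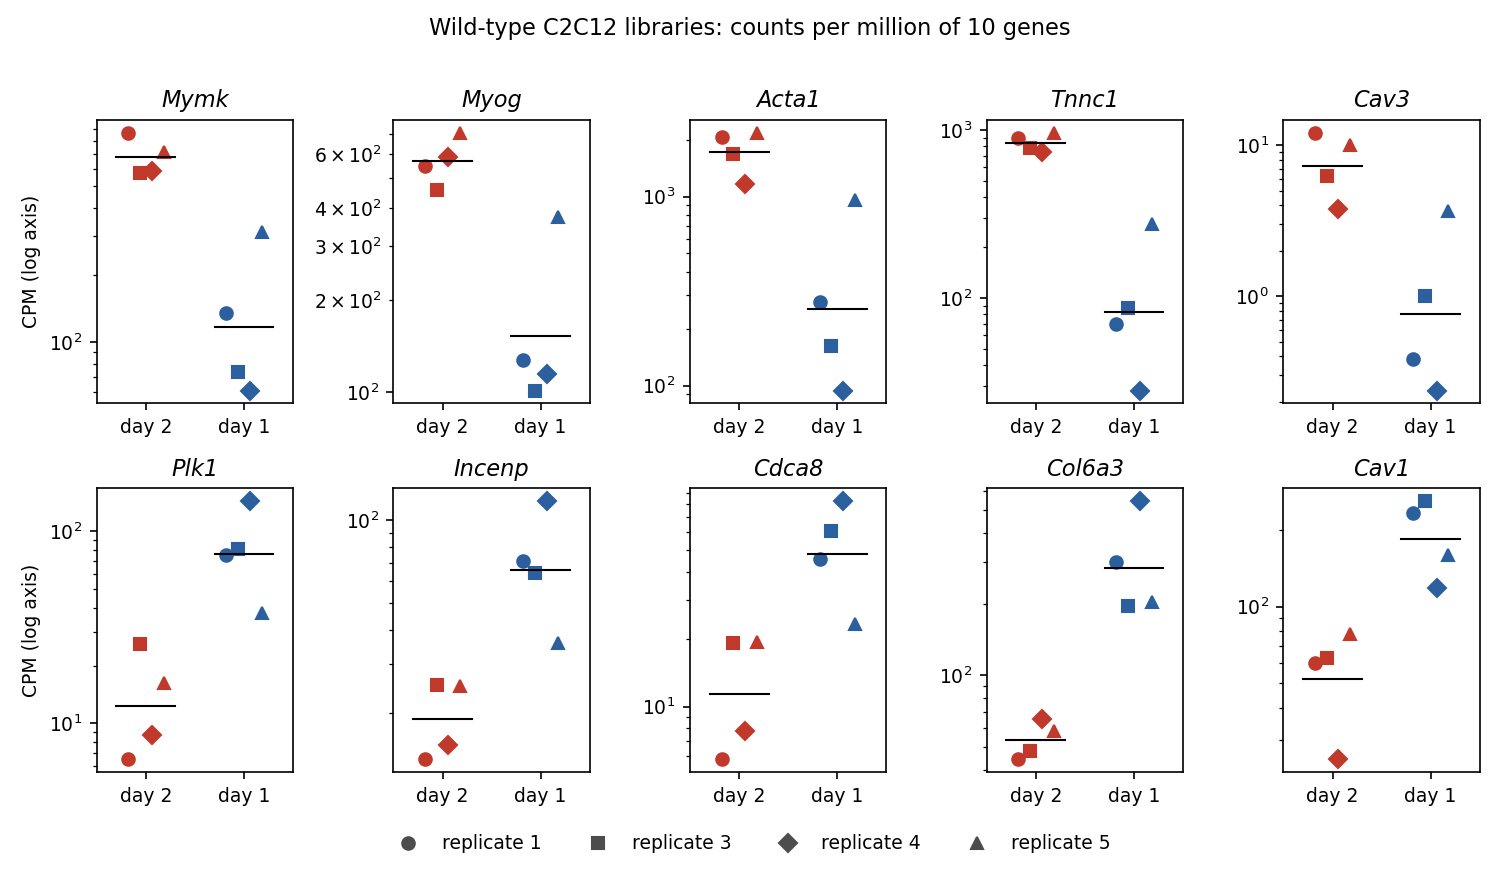
Each panel shows 1 gene's CPM (vertical log axis) in the 4 libraries of WT day 2 (left, red) and of WT day 1 (right, blue), with marker shapes for replicate numbers and bars for geometric means. Mymk, Myog, Acta1, Tnnc1 and Cav3 are higher and Plk1, Incenp, Cdca8, Col6a3 and Cav1 lower at WT day 2, with no overlap in any panel; the Myog difference missed the threshold (adjusted p = 0.0868).

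Genes of mitosis and cytokinesis were lower at WT day 2: 18 of 46 tested members were called lower, against 2.17% of all genes tested. None was called higher, and all 46 log2 differences were below 0 (median -2.00). WT day 2 lay wholly below WT day 1 for 33 of them, against 5.92% of all genes tested. Plk1, a kinase that drives mitotic entry and progression (chr7:122159439-122169873), was at 6.51, 25.8, 8.67 and 16.2 CPM in the WT day 2 libraries, against 75.4, 81.2, 143 and 37.6 CPM in the WT day 1 libraries. The day 2 values of replicates 1 and 4 were the lowest and WT day 1 replicate 5 the nearest to day 2 (log2 difference -2.56 ± 0.59, adjusted p = 0.0341). Incenp, the scaffold of the chromosomal passenger complex (chr19:9872296-9899551), was at 13.6, 25.3, 15.3 and 25.1 CPM in the WT day 2 libraries, against 71.2, 64.1, 117 and 35.8 CPM in the WT day 1 libraries. WT day 1 replicate 5 was again the nearest to day 2 (log2 difference -1.86 ± 0.42, adjusted p = 0.00289). Incenp passed the threshold in each of the 8 fits that left out 1 library. Cdca8 (borealin), a partner of Incenp, was at 5.82, 19.2, 7.82 and 19.4 CPM in the WT day 2 libraries, against 45.6, 60.7, 82.8 and 23.4 CPM in the WT day 1 libraries. WT day 2 replicates 3 and 5 came within 5 CPM of WT day 1 replicate 5 (log2 difference -2.02 ± 0.59, adjusted p = 0.0199). Foxm1, a transcription factor of mitotic genes, averaged 25.3 ± 9.05 CPM at WT day 2 and 101 ± 45.8 CPM at WT day 1 (SD, n = 4 each) (log2 difference -2.00 ± 0.44, adjusted p = 0.0211). Racgap1, which acts in cytokinesis, averaged 80.4 ± 35.2 CPM at WT day 2 and 249.6 ± 88.6 CPM at WT day 1 (SD, n = 4 each) (log2 difference -1.63 ± 0.45, adjusted p = 0.00674). Plk1 lost its call without WT day 1 replicates 1, 3 or 4 or WT day 2 replicates 1, 4 or 5 (adjusted p from 0.0634 to 0.161). Cdca8 lost its call without WT day 1 replicate 4 or WT day 2 replicates 1 or 4 (adjusted p from 0.0743 to 0.117), Foxm1 lost its call without WT day 1 replicates 1 or 4 or WT day 2 replicates 1 or 4 (adjusted p from 0.0555 to 0.121), and Racgap1 lost its call without WT day 1 replicate 4 (adjusted p = 0.0578).

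The proliferation marker Mki67 was at 18.0, 49.5, 21.9 and 69.1 CPM in the WT day 2 libraries, against 247, 147, 275 and 105 CPM in the WT day 1 libraries. The groups did not overlap, yet the difference missed the threshold (log2 difference -2.29 ± 0.57, adjusted p = 0.147). Top2a, the topoisomerase of dividing cells, had a log2 difference of -2.01 (adjusted p = 0.132; with the replicate block 0.045). The number of mitosis genes called was 41 with the replicate block and 2 without WT day 2 replicate 4 (median then -1.77). It was 9 without both libraries that stood apart. The count was 3 and 5 without WT day 1 replicates 1 and 3, 1 without WT day 1 replicate 4, 2 without WT day 2 replicate 1, and 8 without WT day 2 replicate 5. The summed CPM of the list was 610.2, 1834, 706 and 1871 CPM in the WT day 2 libraries, against 4749, 4869, 6445 and 2333 CPM in the WT day 1 libraries. The lowest WT day 1 sum, replicate 5, stayed above the highest WT day 2 sum.

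Among the lower genes outside that list were Cit, the citron kinase of cytokinesis, and Gtse1, a protein of the G2 and S phases. Cit was at 6.08, 7.13, 5.91 and 5.85 CPM in the WT day 2 libraries, against 46.2, 22.1, 54.8 and 15.3 CPM in the WT day 1 libraries. The WT day 2 libraries were within 2 CPM of each other (log2 difference -2.47 ± 0.44, adjusted p = 0.00362). Gtse1 was at 13.2, 15.6, 7.48 and 10.1 CPM in the WT day 2 libraries, against 68.1, 57.7, 83.1 and 18.3 CPM in the WT day 1 libraries. WT day 1 replicate 5 was close to the WT day 2 range (log2 difference -2.29 ± 0.54, adjusted p = 0.00358). Each of Cit and Gtse1 passed the threshold in each of the 8 fits that left out 1 library. Eme1, a DNA repair nuclease subunit, Ticrr, an initiator of replication, and Aspm, a spindle pole protein, were also lower. So were members of the mitosis list: Kif18b and Kif23, mitotic kinesins, and Cdc25c, a phosphatase of mitotic entry. These genes had log2 differences of -2.71 to -2.28. Eme1 passed in each of the 8 fits. Ticrr lost its call without WT day 1 replicate 4 (adjusted p = 0.0861). Aspm lost it without replicates 1 or 4 of either day (0.0613 to 0.112). Kif23 lost it without WT day 1 replicates 1, 3 or 4 or WT day 2 replicates 1 or 4 (0.0572 to 0.124). Kif18b and Cdc25c lost it in those fits and without WT day 2 replicate 5 (0.0556 to 0.179). Nefm, a neurofilament gene, and Krt13, a keratin gene, were also among the 12 largest falls. Nefm lost its call without WT day 1 replicate 4 (adjusted p = 0.053). Krt13 lost its call without WT day 1 replicates 1, 3 or 4 or WT day 2 replicates 1, 4 or 5 (adjusted p from 0.0501 to 0.0991). Exons of Eme1, Ticrr and Nefm overlap those of genes on the opposite strand.

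CCAAT boxes are a common element of cell cycle promoters. The windows of Kif23 (chr9:61946800-61947049, minus strand) and Cdca8 (chr4:124936918-124937167, minus strand) are given on the gene strand, with CCAAT or its reverse complement ATTGG in capitals.
Kif23: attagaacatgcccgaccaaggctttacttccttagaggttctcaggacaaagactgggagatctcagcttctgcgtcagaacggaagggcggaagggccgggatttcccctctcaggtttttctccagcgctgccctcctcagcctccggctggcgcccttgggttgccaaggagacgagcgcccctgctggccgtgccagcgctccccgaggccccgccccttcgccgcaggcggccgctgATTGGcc
Cdca8: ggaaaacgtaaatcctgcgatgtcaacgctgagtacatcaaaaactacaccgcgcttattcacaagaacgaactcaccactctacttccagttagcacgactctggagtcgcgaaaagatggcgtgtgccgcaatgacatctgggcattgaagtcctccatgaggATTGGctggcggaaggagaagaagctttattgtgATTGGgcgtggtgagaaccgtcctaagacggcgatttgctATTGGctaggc
Kif23 held 1 site and Cdca8 held 3. A CCAAT box on either strand stood in 28 of 39 matched mitosis genes (71.8%), in 22 of 35 matched DNA replication genes (62.9%), in 120 of the 234 lower genes (51.3%) and in 40.8% of all matched genes. For thick filament genes it stood in 7 of 22 (31.8%). A high share was not particular to cell cycle genes. The box stood in 24 of 30 matched stress response genes (80.0%), described below, and in 58 of the 129 higher genes (45.0%). These shares are descriptions of the windows.

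DNA replication genes were lower in 15 of 43 tested members, and none was higher (median log2 difference -1.27; 41 of 43 below 0). Mcm3, a subunit of the replicative helicase (chr1:20802968-20820312), was at 18.1, 39.7, 17.2 and 27.7 CPM in the WT day 2 libraries, against 99.2, 97.2, 159 and 40.9 CPM in the WT day 1 libraries. The WT day 2 maximum (replicate 3) and the WT day 1 minimum (replicate 5) were close (log2 difference -1.95 ± 0.50, adjusted p = 0.00569). Dnmt1, which copies DNA methylation at the fork, was at 43.5, 51.3, 28.1 and 48.8 CPM in the WT day 2 libraries, against 118, 83.7, 165 and 78.1 CPM in the WT day 1 libraries. Its groups were apart (log2 difference -1.37 ± 0.32, adjusted p = 0.00571). Mcm2, Mcm4, Mcm6 and Mcm7 of the same helicase were also called, with log2 differences of -1.49 to -1.26; Mcm7 shares exonic sequence with genes on the opposite strand. Mcm3 lost its call without WT day 1 replicate 4 (adjusted p = 0.0543), and Dnmt1 lost its call without WT day 1 replicate 4 (adjusted p = 0.0637). The count was 30 with the replicate block and 5 without WT day 2 replicate 4. It was 8 and 9 without WT day 1 replicates 1 and 3, 0 without WT day 1 replicate 4, and 27 without WT day 1 replicate 5. It was 4 without WT day 2 replicate 1, and 10 without WT day 2 replicate 5. The summed CPM of the list was 866, 1528, 704 and 1360 CPM in the WT day 2 libraries, against 2440, 2723, 3476 and 1365 CPM in the WT day 1 libraries, so the groups overlapped through WT day 1 replicate 5.

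Among cyclins, CDKs, their inhibitors and pocket proteins, 2 of 23 tested genes were higher and 1 lower (median log2 difference 0.06). Cdkn1a, the p21 inhibitor of cyclin-dependent kinases (chr17:29090976-29100727), was at 2144, 1250, 941 and 1383 CPM in the WT day 2 libraries, against 714, 505, 381 and 829 CPM in the WT day 1 libraries. The groups did not overlap (log2 difference 1.24 ± 0.35, adjusted p = 0.0225). Gadd45a, a growth arrest gene that is also induced by stress, was at 152, 144, 337 and 142 CPM in the WT day 2 libraries, against 81.4, 88.1, 60.9 and 83.7 CPM in the WT day 1 libraries. WT day 2 replicate 4 was more than 2-fold above the other WT day 2 libraries (log2 difference 1.30 ± 0.33, adjusted p = 0.0214). Rbl1, the pocket protein p107, averaged 16.1 ± 7.42 CPM at WT day 2 and 37.5 ± 11.1 CPM at WT day 1 (SD, n = 4 each) and was lower (log2 difference -1.22 ± 0.43, adjusted p = 0.0339). Ccnd1 (cyclin D1) was at 130.0, 150.4, 50.5 and 131 CPM in the WT day 2 libraries, against 295, 311, 315 and 263 CPM in the WT day 1 libraries. Its groups did not overlap, but the difference missed the threshold (log2 difference -1.36 ± 0.37, adjusted p = 0.106). Ccnd3 (cyclin D3) and Rb1, both known to rise as myoblasts differentiate, had adjusted p-values of 0.185 and 0.342. Cdkn1a lost its call without WT day 1 replicates 1, 3 or 4 or WT day 2 replicate 1 (adjusted p from 0.0501 to 0.144), Gadd45a lost its call without WT day 1 replicates 1 or 4 or WT day 2 replicate 4 (adjusted p from 0.0596 to 0.149), and Rbl1 lost its call without WT day 1 replicates 1, 3 or 4 or WT day 2 replicates 1 or 4 (adjusted p from 0.0751 to 0.152).

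Collagens and fibrillar matrix genes were lower in 5 of 29 tested members and higher in none (median log2 difference -0.70; 27 of 29 below 0). Col6a3, the alpha 3 chain of collagen VI (chr1:90765923-90843971), was at 44.3, 48.1, 65.5 and 58.5 CPM in the WT day 2 libraries, against 299.6, 197, 542 and 205 CPM in the WT day 1 libraries. Every WT day 2 library was below the lowest WT day 1 library, and Col6a3 had the smallest p-value of all genes tested (log2 difference -2.52 ± 0.36, adjusted p = 0.000882). It passed the threshold in each of the 8 fits that left out 1 library. Thbs2, the matricellular protein thrombospondin 2, was at 152, 99.1, 70.0 and 77.2 CPM in the WT day 2 libraries, against 312, 204, 299 and 237 CPM in the WT day 1 libraries. It was lower without overlap (log2 difference -1.40 ± 0.29, adjusted p = 0.007) and passed the threshold in each of the 8 fits that left out 1 library. Tnc, Col8a1 and Col3a1 were the other called members, with log2 differences of -1.69 to -1.06. Col1a1, a chain of collagen I, averaged 18.1 ± 6.32 CPM at WT day 2 and 41.3 ± 21.4 CPM at WT day 1 (SD, n = 4 each) and was not called (adjusted p = 0.349). The count was 2 without WT day 1 replicate 1 or 4, or without WT day 2 replicate 3, 4 or 5; it was 3 without WT day 1 replicate 3 or WT day 2 replicate 1. It was 7 with the replicate block. Of 5 tested fibroblast markers, 1 was called lower, the same Col3a1, and 2 with the replicate block or by DESeq2 (median log2 difference -1.04). The count was 0 without WT day 1 replicate 1 or 4 and without any 1 of the WT day 2 libraries. The summed CPM of the 8 fibroblast markers was 950.3 to 1218 at WT day 2 and 1123 to 2576 at WT day 1, most of it Col3a1. Thy1 had no read, and Dcn (decorin) averaged 206 ± 89.3 CPM at WT day 2 and 80.9 ± 48.6 CPM at WT day 1 (SD, n = 4 each) and was not called (adjusted p = 0.472). The part of fibroblast-like cells in the collagen values was not tested.

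Single genes of other matrix and signalling lists were also called. Of 24 tested genes of basement membrane and integrins, 1 was higher and 1 lower (4.17% each). Of 26 tested genes of TGF-beta, myostatin, activin and BMP, 1 was higher and 1 lower (3.85% each). Over all genes tested 1.26% were higher and 2.17% lower, so these counts are no result about the lists. Col18a1, a basement membrane collagen, was at 47.4, 46.7, 45.6 and 27.9 CPM in the WT day 2 libraries, against 146, 138, 158 and 154 CPM in the WT day 1 libraries. Its groups were apart, and WT day 2 replicate 5 was the lowest library (log2 difference -1.83 ± 0.19, adjusted p = 0.0123). Ltbp1, which holds latent TGF-beta in the matrix, averaged 49.5 ± 12.2 CPM at WT day 2 and 131 ± 29.0 CPM at WT day 1 (SD, n = 4 each) (log2 difference -1.40 ± 0.24, adjusted p = 0.00674). Fst (follistatin), which binds myostatin and activin, was at 35.2, 23.3, 5.48 and 41.9 CPM in the WT day 2 libraries, against 7.19, 5.79, 5.22 and 12.4 CPM in the WT day 1 libraries. Its groups overlapped through WT day 2 replicate 4 (log2 difference 1.78 ± 0.72, adjusted p = 0.0114). Ltbp1 passed the threshold in each of the 8 fits that left out 1 library, Col18a1 lost its call without WT day 1 replicate 4 (adjusted p = 0.06), and Fst lost its call without WT day 1 replicate 4 (adjusted p = 0.0846).

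In the IGF, Wnt, Hedgehog and FGF list, 1 of 30 tested genes was higher and 3 were lower (median log2 difference -0.43). These were 3.33% and 10.0% of the list, against 1.26% and 2.17% of all genes tested. Hhip, an inhibitor and target of Hedgehog signalling, was at 8.52, 8.80, 10.6 and 9.43 CPM in the WT day 2 libraries, against 46.2, 42.4, 43.7 and 36.0 CPM in the WT day 1 libraries. Both groups were narrow and far apart (log2 difference -2.17 ± 0.10, adjusted p = 0.034). Gli1, a transcription factor and target of the same pathway, was at 0.0856, 0.0762, 0 and 0 CPM in the WT day 2 libraries, against 0.612, 1.11, 1.66 and 0.820 CPM in the WT day 1 libraries, and was called lower (adjusted p = 0.00571). At these levels 2 of the 4 WT day 2 libraries held no read, so no fold is given; Gli1 exons overlap a gene on the opposite strand. Sfrp1, a secreted Wnt inhibitor, was lower (log2 difference -2.29 ± 0.46, adjusted p = 0.0251). Fgf21, a hormone that muscle can release, was at 9.50, 17.2, 33.1 and 24.6 CPM in the WT day 2 libraries, against 1.68, 1.01, 0.475 and 8.48 CPM in the WT day 1 libraries, and was higher (log2 difference 2.85 ± 0.91, adjusted p = 0.0201). Hhip lost its call without WT day 1 replicates 1, 3 or 4 or WT day 2 replicates 1, 3, 4 or 5 (adjusted p from 0.0638 to 0.115). Fgf21 lost its call without WT day 1 replicates 1, 3 or 4 or WT day 2 replicate 4 (adjusted p from 0.0643 to 0.114), Sfrp1 lost its call without WT day 1 replicates 1 or 4 or WT day 2 replicates 3, 4 or 5 (adjusted p from 0.0586 to 0.117), and Gli1 passed the threshold in each of the 8 fits that left out 1 library. Among imprinted genes, H19, a noncoding RNA of the Igf2 locus, was at 7569, 4778, 3853 and 8549 CPM in the WT day 2 libraries, against 2040, 1383, 1712 and 3418 CPM in the WT day 1 libraries. Its groups did not overlap (log2 difference 1.53 ± 0.39, adjusted p = 0.0124), and it lost its call without WT day 1 replicates 3 or 4 (adjusted p from 0.0521 to 0.0869). Igf2 averaged 117 ± 17.6 CPM at WT day 2 and 61.8 ± 23.8 CPM at WT day 1 (SD, n = 4 each) and was not called (adjusted p = 0.542).

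Genes of the unfolded protein and integrated stress response were called higher in 12 of 33 tested members (median log2 difference 1.18), and this rested mostly on WT day 2 replicate 4. Without that library 2 members were called (0.829% of all genes were higher in that fit) and the median was 0.20. The unfolded protein response raises chaperones of the endoplasmic reticulum when misfolded proteins build up there. Hspa5, the reticulum chaperone BiP (chr2:34771970-34777547), was at 844, 885, 11863 and 1009 CPM in the WT day 2 libraries, against 786, 654, 689 and 970.2 CPM in the WT day 1 libraries. WT day 2 replicate 4 was more than 10-fold above every other library, and the other WT day 2 libraries overlapped WT day 1 (log2 difference 2.24 ± 0.94, adjusted p = 0.0136; without WT day 2 replicate 4, 0.791). Hspa5 also lost its call without WT day 1 replicate 4 or WT day 2 replicate 4 (adjusted p from 0.0861 to 0.791). Sdf2l1, Pdia4, Hyou1, Creld2 and Hsp90b1, which act in folding in the same compartment, were 6.77 to 13.3 times as high in that library as in the next WT day 2 library.

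The pair of members that kept a call without that library were Herpud1 and Dnajb9. Herpud1, a component of reticulum-associated degradation, was at 189.6, 149.6, 879 and 142 CPM in the WT day 2 libraries, against 93.2, 92.8, 79.1 and 96.9 CPM in the WT day 1 libraries. The other 3 WT day 2 libraries were also above all WT day 1 libraries (log2 difference 1.91 ± 0.63, adjusted p = 0.00289; without WT day 2 replicate 4, log2 difference 0.82, adjusted p = 0.026). Dnajb9, a co-chaperone of BiP, was at 52.3, 53.2, 280.0 and 73.2 CPM in the WT day 2 libraries, against 32.6, 34.2, 24.6 and 36.9 CPM in the WT day 1 libraries. The other 3 WT day 2 libraries were again above WT day 1 (log2 difference 1.84 ± 0.59, adjusted p = 0.00358; without that library 0.89 and adjusted p = 0.0426). Ddit3, the stress transcription factor CHOP, was at 51.8, 68.4, 293 and 22.9 CPM in the WT day 2 libraries, against 29.5, 60.9, 21.7 and 26.6 CPM in the WT day 1 libraries. It was not called (log2 difference 1.65 ± 0.83, adjusted p = 0.0701). The stress list had 5 calls without WT day 1 replicate 1 or 3, and 2 without WT day 1 replicate 4. The cytosolic heat shock list gave 1 higher and 1 lower gene in 21, and its summed CPM was 7430 in WT day 2 replicate 4, against 7994 to 8921 in the other WT day 2 libraries. Whether the stress genes of this library bear on its other values was not tested.

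**Figure D4:**
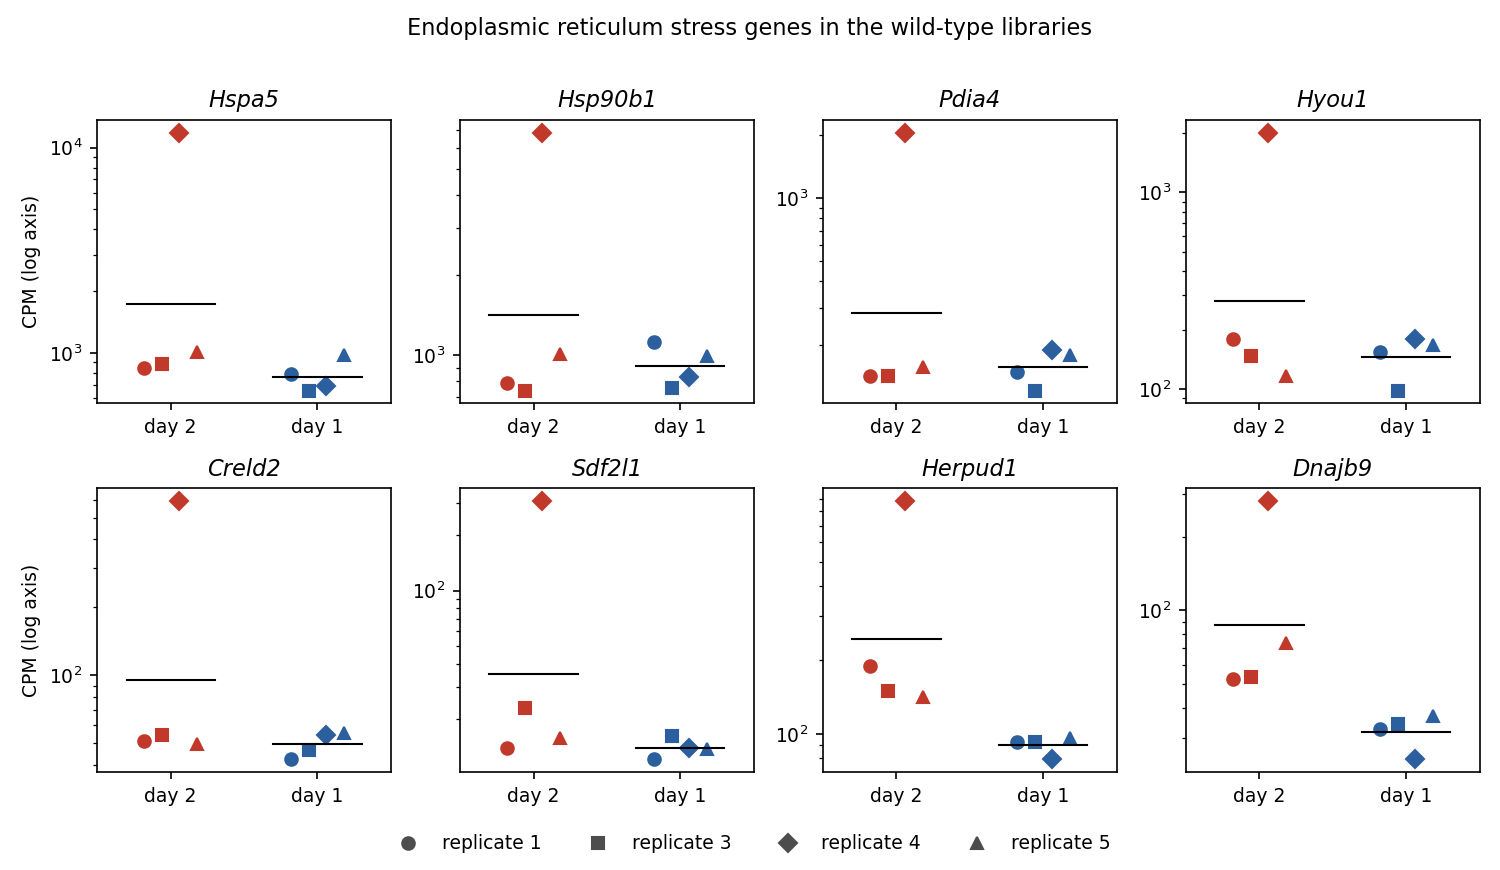
Each panel shows the CPM (vertical log axis) of 1 endoplasmic reticulum stress gene in the libraries of WT day 2 (left, red) and WT day 1 (right, blue); marker shapes give replicate numbers and bars are geometric means. WT day 2 replicate 4 is the highest library in all 8 panels, and for Herpud1 and Dnajb9 the other WT day 2 libraries also lie above WT day 1.

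The promoter window of Hspa5 (chr2:34771840-34772089, plus strand) is shown because it holds an endoplasmic reticulum stress element, in capitals. The GENCODE span of Hspa5 given above begins before the RefSeq start. The end of the window, with the element, therefore lies inside that span. The element was searched as CCAAT, any 9 bases and then CCACG; it contains a CCAAT box.
Hspa5: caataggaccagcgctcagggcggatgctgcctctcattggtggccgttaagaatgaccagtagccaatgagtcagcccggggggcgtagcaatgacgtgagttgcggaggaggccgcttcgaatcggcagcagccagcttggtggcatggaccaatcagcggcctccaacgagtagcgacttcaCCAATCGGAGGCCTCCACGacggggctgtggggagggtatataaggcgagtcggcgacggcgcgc
On either strand, the element stood in 8 of 30 matched stress response genes (26.7%) and in 18 of the 10509 matched genes tested (0.171%). Of the 129 matched higher genes, 3 held it.

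Of 27 muscle energy genes, 2 were higher (median log2 difference 0.20), and both encode muscle isoforms of cytochrome oxidase subunits. Cox6a2 (chr7:128205435-128206387) was at 5.61, 6.40, 17.5 and 8.56 CPM in the WT day 2 libraries, against 0.153, 0.605, 0.237 and 1.82 CPM in the WT day 1 libraries. It had the largest rise among called genes with a mean of at least 5 CPM and no overlap (log2 difference 3.74 ± 0.74, adjusted p = 0.00289). Its mean reached 5 CPM only with WT day 2 replicate 4 (17.5 CPM). The low WT day 1 values (0.153 to 1.82 CPM) leave the size of the fold uncertain. Cox6a2 passed the threshold in each of the 8 fits that left out 1 library. Cox8b was at 7.71, 9.03, 4.00 and 11.5 CPM in the WT day 2 libraries, against 0.765, 1.21, 0.178 and 3.33 CPM in the WT day 1 libraries. It was also apart between the days (log2 difference 2.54 ± 0.81, adjusted p = 0.00766) and lost its call without WT day 1 replicate 4 (adjusted p = 0.0563). Ckm, the muscle creatine kinase, was at 128, 148, 118 and 187 CPM in the WT day 2 libraries, against 16.4, 15.1, 7.12 and 80.0 CPM in the WT day 1 libraries. It missed the threshold (log2 difference 2.29 ± 0.74, adjusted p = 0.0528; with the replicate block 0.0106). The list had 6 calls with the block and 6 without WT day 1 replicate 5. In the edgeR fit none of 36 nuclear genes of the respiratory chain was called (median 0.17; 0 at an unadjusted p under 0.05), none of 10 messenger RNAs of the mitochondrial genome (1) and none of 27 sterol genes (1); DESeq2 and the replicate block also called none. Of 27 genes of hypoxia and glycolysis edgeR called none (median -0.30; 6 at an unadjusted p under 0.05), DESeq2 called 1 higher and 1 lower, and the replicate block called 3 lower. Without WT day 2 replicate 1, 2 of them were lower, and without WT day 2 replicate 3 or 5, 1 was higher. Of 25 interferon genes edgeR called none (8 at an unadjusted p under 0.05), and DESeq2 and the fit without WT day 1 replicate 5 each called 1 higher.

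The same step was then compared with that of the Flnc-edited cells, which share no library with it. Flnc itself was at 73.8, 90.5 and 77.5 CPM in KO day 2 replicates 1, 3 and 5 and at 61.8, 28.2, 45.3 and 76.3 CPM in KO day 1 replicates 1, 3, 4 and 5, below every WT library. In the KO cells, 44 genes (0.319%) were higher and 223 (1.62%) lower at day 2. Of the 173 genes higher in WT cells, 152 (87.9%) had a KO log2 difference above 0, against 45.6% of all genes tested, and 24 were called higher in KO cells. Of the 299 lower genes, 281 (94.0%) had a KO difference below 0, against 53.1% of all genes, and 109 were called lower. None was called in the opposite direction. The median log2 difference of the higher genes was 1.71 in WT cells, which chose them, and 0.53 in KO cells; for the lower genes the medians were -1.43 and -1.01. Medians that include the choosing comparison are larger by construction.

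The median log2 difference of the thick filament list was 1.74 in WT cells and 1.74 in KO cells, that of the thin filament list 1.70 and 1.26, that of mitosis -2.00 and -2.94, and that of DNA replication -1.27 and -1.59. The stress list had a median of 1.18 in WT cells and 0.12 in KO cells; without WT day 2 replicate 4 the WT median was 0.20. Mymk had a log2 difference of 2.24 in WT cells and 2.33 in KO cells; its KO day 2 values were 142, 59.8 and 37.3 CPM, against 24.3, 20.6, 7.46 and 11.0 CPM at KO day 1.

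The difference of the steps themselves (WT step minus KO step) was past the threshold for 1 of 13780 genes (0.00726%), with 472 at an unadjusted p under 0.05; DESeq2 also called 1. That gene was Fam19a5, a secreted chemokine-like protein. Fam19a5 was at 4.88, 4.08, 2.38 and 2.93 CPM in the WT day 2 libraries, against 13.6, 10.3, 10.2 and 9.71 CPM in the WT day 1 libraries. In KO cells it was at 13.9, 29.9 and 31.0 CPM at day 2 and at 9.27, 13.0, 9.84 and 13.3 CPM at day 1. Thus all WT day 2 libraries were below WT day 1, and all KO day 2 libraries above KO day 1. The log2 difference was -1.61 in WT cells and 1.14 in KO cells, and the difference of the steps was -2.75 ± 0.47 (adjusted p = 0.00553). No gene was past the threshold without KO day 2 replicate 5, or when the model held the 4 groups of the contrast alone. A difference that missed the threshold does not show that the lines act alike.

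**Figure D5:**
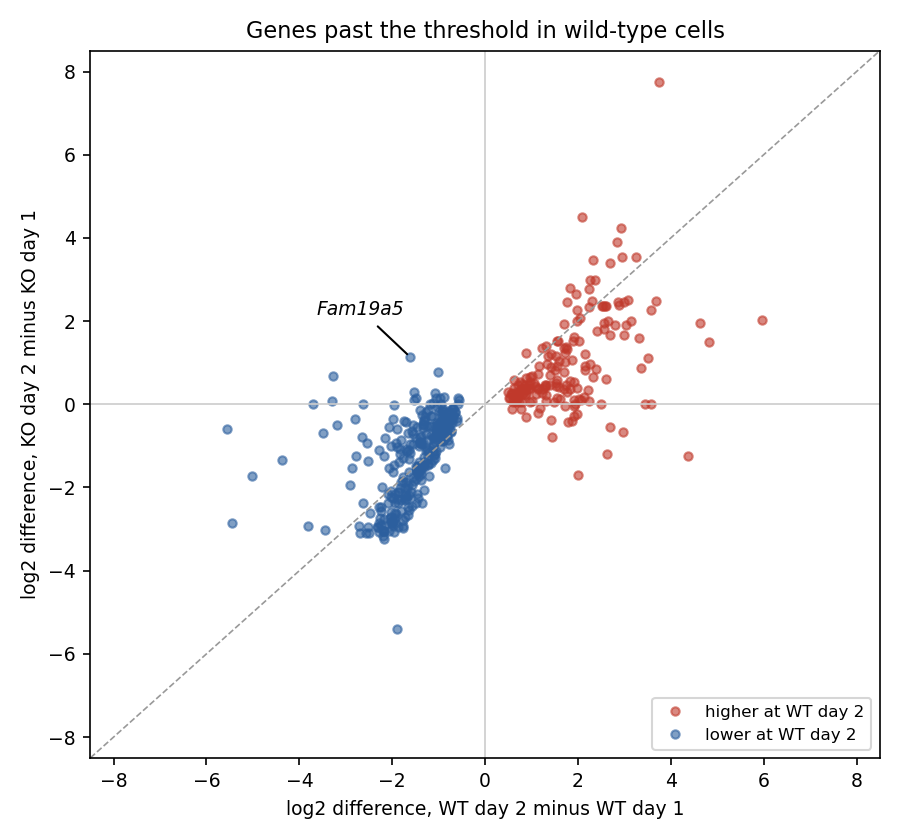
Each point is 1 of the 472 genes past the threshold in WT cells, with its log2 difference in WT cells (horizontal) and in KO cells (vertical); the dashed line marks equal differences. Of the genes higher in WT cells 152 of 173 lie above 0 in KO cells, and of those lower 281 of 299 lie below 0. Fam19a5 was past the threshold for the difference of the steps.

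The neighbouring steps in WT cells share libraries with this one, so their values are set side by side and not tested for likeness. From day 0 to 1, 1 to 2, 2 to 4 and 4 to 6, the numbers of genes higher were 320, 173, 597 and 0, and of genes lower 257, 299, 889 and 0; the last step had 426 genes at an unadjusted p under 0.05 in edgeR and no call in DESeq2. For the first 3 of those steps the median log2 differences were 1.47, 1.74 and 2.07 for the thick filament list, and 1.37, 1.70 and 1.40 for the thin filament list. They were -0.75, -2.00 and -2.03 for mitosis, and 0.00, -0.70 and -1.08 for collagens. Mymk averaged 36.9, 145, 685, 1704 and 1756 CPM at days 0, 1, 2, 4 and 6. Myog averaged 26.3, 179, 575, 1209 and 1196 CPM, and Plk1 174, 84.4, 14.3, 2.39 and 1.16 CPM at the same days. The difference between this step and the one before it was tested in 1 model, and no gene passed: edgeR gave 834 genes at an unadjusted p under 0.05, and DESeq2 called 1 higher and 2 lower. With the replicate block, 4 genes were called lower.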

How the data were processed

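Poly(A) RNA of C2C12 cells was sequenced from stranded libraries as 51-base reads, per the labels' protocols. Per the submitters' processing notes, FastQC 0.11.9, STAR 2.7.9, featureCounts 2.0.3, DESeq2 and the build GRCm38 are named (GRCh38 is also named); the strand setting and how read pairs were counted are not given in the sources used here. The deposited values are raw read counts per gene, made by the authors. All 29980 gene IDs matched GENCODE M21 (GRCm38), from which coordinates and exon lengths come. In the 8 libraries 60.8% to 65.7% of counts above 0 were even, so counts were also tested halved. Exons of 17 of the 110 named genes overlap a tested gene on the opposite strand, and such counts are uncertain. A column that matches no sample (1) was left out.

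With edgeR 4.0.16 (R 4.3.3) 10 groups of 39 libraries were fitted in 1 quasi-likelihood model (TMM, filterByExpr, robust; 13780 genes, 29 residual degrees of freedom), and contrasts were adjusted by Benjamini-Hochberg, with calls at an adjusted p under 0.05. CPM use TMM-scaled library sizes, and RPKM divide them by exon length. log2 CPM for errors and correlations carry a prior count of 2. Alternatives were DESeq2 1.42.0, its size factors, no filter, the groups of a contrast alone, a 1.5-fold test (glmTreat), halved counts, a replicate block and leaving out each library. The scripts were tested on simulated data. Same-numbered WT day 2 and day 1 libraries deviated together (r = 0.387, 0.398, 0.186 and 0.314 for replicates 1, 3, 4 and 5), all over 0.1. The highest r with another number ran from -0.009 to 0.118, so the numbers pair the samples by these data. The main fit left this pairing out, and the replicate block took it in as an alternative.

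The 37 gene lists and their members were chosen with earlier results of these data known. Named genes are, per direction, the 12 called genes with the greatest change, no overlap and a mean of at least 5 CPM, up to 4 called genes per list by smallest p, a panel of 32, genes called for a difference of steps, and up to 6 stress genes highest in WT day 2 replicate 4. Other called members of a list are given for completeness, and genes in the closing observations were picked after their values were seen. Promoter windows are from RefSeq (GRCm38.p6); a gene counted once if any of its entries held the motif.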

Additional observations from a re-analysis of the deposited data

Results flagged for a closer look

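The values below are log2 CPM. In groups of 4, a library was singled out when its gap to the nearest other, over the group's range, was above Dixon's 95% critical value; 16 of 220 groups of the named genes met this, and chance does so in about 1 in 20 groups. WT day 2 replicate 4 accounted for 10 of the 16, but 6 of these are genes named because they were high in that library, so the tally is partly fixed by the choice of genes and cannot be read against the chance rate. In that library Hspa5 was at 13.53, Hsp90b1 at 12.74, Pdia4 at 11.01, Hyou1 at 10.98, Herpud1 at 9.779, Creld2 at 9.208, Sdf2l1 at 8.26 and Gadd45a at 8.398, all above the other WT day 2 libraries. In the same library Ccnd1 (5.661) and Ccnd3 (7.593), the cyclins D1 and D3, were below the others; for Ccnd3 this put replicate 4 (193 CPM) inside the WT day 1 range and the other WT day 2 libraries (471 to 529 CPM) above it. WT day 1 replicate 5 was far above the other WT day 1 libraries for Mymx (4.784) and Tnnt2 (8.356). WT day 2 replicate 5 was above its group for Myoz2 (5.579) and Tnnc2 (8.291) and below it for Col18a1 (4.806). Cdkn1c, at about 1 CPM, was highest in WT day 2 replicate 3 (0.7064). No cause of these values was tested.

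Fam19a5 was the gene whose step differed between the lines: the WT step minus the KO step was -2.75 on the log2 scale, past the threshold in the edgeR interaction contrast.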

How the results depend on the processing

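Numbers of genes for WT day 2 against WT day 1 are given as higher and lower. With DESeq2 they were 336 and 456, without a filter 112 and 183, against a 1.5-fold change 19 and 18, and in a model of the contrast's groups alone 22 and 113. With the replicate block they were 328 and 594, and 278 higher genes with the replicate block in those groups alone. Leaving out 1 library gave 15 to 310 higher and 28 to 432 lower genes. Without the 2 libraries that stand apart, an alternative added after seeing the data, 275 were higher. Other size factors and halved counts moved these counts by less than 1.5 times.

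For the WT step minus the KO step, the higher count was 1 without the 2 libraries, against 0. The lower count was 0 in the groups alone, with or without the replicate block, and 0 to 1 when 1 library was left out. For this step minus the previous one, DESeq2 gave 1 higher and 2 lower, halved counts 1 lower, and the replicate block 4 lower, or 5 in the groups alone. The difference in mitochondrial share stayed above 0 and missed the threshold in each alternative (0.106 to 0.442 percentage points when 1 library was left out).

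Over 110 named genes and their alternatives (1867 pairs), 1402 kept direction and side of the threshold, 423 lost the call, 37 gained one and 5 reversed. Without WT day 2 replicate 4 the log2 difference was -0.12 for Pdia4, -0.026 for Hyou1 and -0.13 for Hsp90b1; without the 2 libraries it was -0.056 for Pdia4 and -0.096 for Hsp90b1. Over the fits without 1 library these differences reached 2.30 for Pdia4, 2.38 for Hyou1 and 1.64 for Hsp90b1. The single library decides those values. The cause of the other changes was not tested. With 4 libraries a group, the self-test recovered large changes more often than small ones, so a gene without a call may still differ.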

Other observations

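Of the 472 called genes, 43 passed in each of the 8 fits that left out 1 library, and most of them belong to no muscle or cell cycle list. Of the called genes in general, 108 of the 173 higher and 249 of the 299 lower genes belong to no list of any kind. The lists hold only 803 genes and 13780 were tested, so most genes tested also belong to no list. Cit and Gtse1, described above with the cell cycle genes, are among the 43 and in no cell cycle list. The other genes named here were chosen after their values were seen. Errfi1, a feedback inhibitor of the EGF receptor, averaged 71.0 ± 19.0 CPM at WT day 2 and 178 ± 39.5 CPM at WT day 1 (SD, n = 4 each; log2 difference -1.33, edgeR adjusted p = 0.00289). Fkbp5, a co-chaperone of steroid receptors, averaged 7.88 ± 2.25 CPM at WT day 2 and 23.0 ± 9.70 CPM at WT day 1 (log2 difference -1.54, adjusted p = 0.00289). Dazap1, an RNA-binding protein gene, averaged 50.1 ± 6.68 CPM at WT day 2 and 90.0 ± 9.31 CPM at WT day 1. Wnt7b, a Wnt ligand, averaged 0.173 ± 0.0689 CPM at WT day 2 and 2.32 ± 0.832 CPM at WT day 1.

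Among the higher genes of this kind, Dgkd, a diacylglycerol kinase, averaged 138 ± 39.0 CPM at WT day 2 and 71.7 ± 12.1 CPM at WT day 1 (log2 difference 0.95, edgeR adjusted p = 0.00674). Mllt11 averaged 52.9 ± 10.1 CPM at WT day 2 and 27.3 ± 4.37 CPM at WT day 1 (log2 difference 0.95, adjusted p = 0.00423). Arhgef6, an exchange factor for Rac and Cdc42, averaged 7.95 ± 3.20 CPM at WT day 2 and 1.81 ± 0.666 CPM at WT day 1 (log2 difference 2.12, adjusted p = 0.00571). None of these genes had overlapping groups.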
